A study of Mus musculus with 9 samples.

Results

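The serpin family of the mouse mandible was taken as every gene of the deposited count table whose symbol begins with *Serpin*, a clade letter from a to i and a number. The rule found 64 genes of the 27179 in the table, with 26 in clade A, 27 in clade B, 3 in clade E, 2 each in clades F and I, and 1 each in clades C, D, G and H. The rule reads the gene symbol and no count. Of the 64 members, 10 had no count in any library and 17 more had too few counts to be tested, so 37 were compared between the groups.

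RNA came from whole mandibles, teeth included, of male C57BL/6 mice 6 months old: 5 wild-type (WT) controls and 4 mice labelled *FcγRIIB*-/-, a genotype that lacks the inhibitory Fc gamma receptor and serves as a model of lupus. The labels name no treatment, and each library is 1 mouse. The comparison asks which transcripts differ in the mandible of the lupus model. *Fcgr2b*, the deleted gene, had 442 to 954 counts in WT and 562 to 757 in the libraries labelled *FcγRIIB*-/- (log2 fold change 0.21, standard error (SE) 0.20, edgeR adjusted p = 0.442), so the groups are named by their labels throughout.

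Serpins are protease inhibitors that offer a reactive loop to their target, and an inhibitory serpin traps the protease that cleaves this loop in a covalent complex. Clade A serpins are mostly secreted, many of them by the liver, whereas clade B serpins lack a classical signal peptide and act mostly inside cells, several of them in stratified epithelium and in leukocytes. A few members inhibit no protease and act as hormone carriers or chaperones.

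Promoters of members that were lower in the labelled libraries are shown first, because 3 of them belong to neighbouring copies of 1 gene. Each is the 120 bases before the RefSeq start site in GRCm38.p6 (mm10), written 5′ to 3′ on the strand of the gene, and none overlaps an annotated exon of its own gene. Capitals mark a TATA box (TATAAA), the letters of an AP-1 site (TGANTCA) or those of a C/EBP site (TTGCNNAA), where N is any base, on either strand. The windows are chr1:107052304-107052423 (minus strand) for *Serpinb3a*, chr1:107161115-107161234 (minus) for *Serpinb3b*, chr1:107278372-107278491 (minus) for *Serpinb3c*, chr1:106934329-106934448 (plus) for *Serpinb12*, chr1:107422569-107422688 (plus) for *Serpinb7*, chr1:107511303-107511422 (plus) for *Serpinb2* and chr12:104044444-104044563 (minus) for *Serpina12*.
Serpinb3a: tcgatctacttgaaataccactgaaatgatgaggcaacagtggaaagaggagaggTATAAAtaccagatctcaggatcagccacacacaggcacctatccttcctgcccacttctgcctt
Serpinb3b: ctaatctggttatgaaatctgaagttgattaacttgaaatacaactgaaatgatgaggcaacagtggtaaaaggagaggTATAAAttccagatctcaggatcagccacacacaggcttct
Serpinb3c: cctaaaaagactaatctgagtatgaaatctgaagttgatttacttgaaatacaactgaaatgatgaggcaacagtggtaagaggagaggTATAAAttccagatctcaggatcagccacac
Serpinb12: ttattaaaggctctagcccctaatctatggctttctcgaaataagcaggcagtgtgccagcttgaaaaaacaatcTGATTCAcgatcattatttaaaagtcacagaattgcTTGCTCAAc
Serpinb7: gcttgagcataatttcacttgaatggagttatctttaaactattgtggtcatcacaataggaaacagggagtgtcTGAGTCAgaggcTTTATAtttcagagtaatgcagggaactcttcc
Serpinb2: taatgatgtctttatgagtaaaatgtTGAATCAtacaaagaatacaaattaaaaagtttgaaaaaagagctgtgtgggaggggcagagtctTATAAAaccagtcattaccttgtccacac
Serpina12: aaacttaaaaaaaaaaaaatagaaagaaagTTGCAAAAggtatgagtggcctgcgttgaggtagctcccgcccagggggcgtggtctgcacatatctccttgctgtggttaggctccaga

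The promoters of the 3 *Serpinb3* copies share the run aggagaggTATAAAt, 15 bases long, in which TATAAA begins 65, 41 and 31 bases before the annotated start of *Serpinb3a*, *Serpinb3b* and *Serpinb3c*. Over all bases of the table before the start, and counting either strand, TATAAA was found in 9 of the 13 RefSeq promoters of lower members and in 17 of the 62 promoters of the family, against 12.37% of all 32851 promoters. TGANTCA was found in 5 of the 13 and in 12 of the 62, against 6.75% of all promoters. TTGCNNAA was found in 5 of the 13 and in 15 of the 62 (9.56% of all), and CCNCNCCC in 5 of the 13 and in 19 of the 62 (45.93% of all). The 13 promoters belong to 11 of the 15 lower genes, and those of 1 gene can overlap. Neighbouring copies share sequence, so these genes are not independent of each other, and a match describes the letters only. *Serpina9* and *Serpinb13* are among the lower genes that had no promoter entry and so were left out of these counts.

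Of the 37 tested serpins, 15 were lower in the labelled libraries, 1 was higher and 21 did not pass (edgeR's quasi-likelihood test, adjusted p under 0.05 over 16329 genes). Among all 16329 genes tested, 19.3% were lower, 14.0% were higher and 33.3% were called in either direction, while the tested serpins gave 40.5% lower and 2.7% higher. For the tested serpins the median log2 fold change came to -0.33, and for all genes tested it came to 0.01. In 15 of the 37 tested serpins every WT value lay above every value of the labelled group, against 17.5% of all tested genes (29.6% in either direction). These were the 15 lower members, so the separation comes from the same values as the calls and adds no support to them. *Serpina1e* and *Serpina6* were separated in the opposite direction (12.1% of all tested genes), although neither passed the test. The members passed the filter on low counts unequally: 28 reached its limit of 0.397 CPM (the count scaled to the library size) in all 9 libraries, whereas *Serpinb3c*, *Serpinb13*, *Serpina12* and *Serpina3b* reached it in WT libraries only, and a gene that passes in this way had to be lower.

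**Figure D1:**
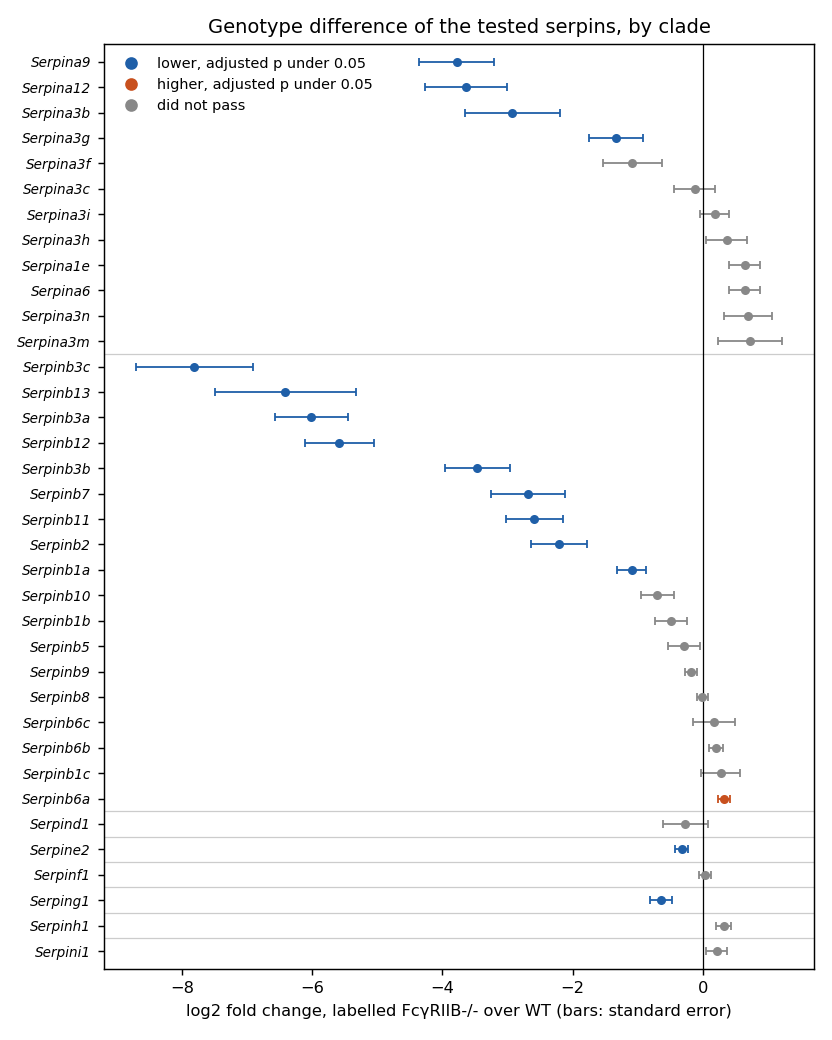
Log2 fold change of 36 of the 37 tested serpins, labelled *FcγRIIB*-/- over WT, with clades separated by grey lines; points are the fitted values and bars their SE (5 WT and 4 labelled mice). Members of clade B reach -7.81 and those of clade A -3.78, while the largest positive values, up to 0.72, did not pass the test.

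The libraries held 21453880 to 28991631 counts. The list of stratified epithelium markers includes basal ones. Most of its members differed widely, both between groups and within WT. The basal *Krt5* (log2 fold change 0.39), *Krt14* (0.24) and *Trp63* (0.31) differed by less between groups. The summed level of the list was 6547 to 24176 CPM in WT and 4967 to 6386 in the labelled group. Of 15 tested markers 11 were lower and 1 was higher, and none was at 0 in every library. The sum in the labelled group came mostly from the basal *Krt5* and *Krt14*, with means of 2122 and 2674 CPM there against 1618 and 2270 in WT. Markers of the neutrophil lineage were lower in 10 of 10 (1156 to 3519 CPM against 142 to 417), those of macrophages and osteoclasts in 8 of 8 (980.0 to 1404 CPM against 377 to 621) and those of platelets and megakaryocytes in 6 of 6 (244 to 326 CPM against 72.7 to 125). Skeletal muscle markers were higher in 6 of 8. Hepatocyte markers summed to 3.37 to 6.05 CPM in WT and 3.79 to 7.08 in the labelled group. The labelled replicate 4 stood apart by salivary and mucous gland markers, at 1188 CPM against 17.8 to 34.8 in the 8 other libraries, almost all of it from *Muc5b*. In bulk RNA of this kind, fewer cells of a type and less RNA per cell cannot be told apart.

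Clade B held the largest differences: of its 18 tested members 9 were lower and 1 was higher, with a median log2 fold change of -0.90. Among all tested genes 19.3% were lower and 14.0% higher, against 50% and 5.6% here. For *Serpinb3c* and *Serpinb13*, which reached the count filter in WT libraries only, the direction was fixed. The members of clade B all lie in 2 clusters, and 8 of the 9 lower ones sit together on chromosome 1 (106861175 to 107608978, GRCm38). Along this cluster the order is *Serpinb5*, *Serpinb12*, *Serpinb13*, *Serpinb3a*, *Serpinb3d*, *Serpinb3b*, *Serpinb3c*, *Serpinb11*, *Serpinb7*, *Serpinb2*, *Serpinb10* and *Serpinb8*. The 8 lower genes form 1 unbroken stretch apart from the untested *Serpinb3d*, and the genes at the ends, *Serpinb5*, *Serpinb10* and *Serpinb8*, did not pass. Of the nearest tested genes before the cluster, *Bcl2* had a log2 fold change of 0.07 and did not pass, *Kdsr* was higher (0.24) and *Vps4b* lower (-0.30). Those after it lie further away, starting at 110888002, 111858701 and 118298514. They were *Cdh19* (-0.25), *Dsel* (-0.19) and *Tsn* (0.03), and none passed.

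*Serpinb3a*, a mouse counterpart of the human squamous cell carcinoma antigens, which inhibit cysteine and serine proteases in squamous epithelium, was the most abundant copy. Its level was 242, 112, 313, 238 and 743 CPM in WT replicates 1 to 5 and 4.03, 6.38, 5.47 and 4.61 CPM in the labelled replicates 1 to 4. The groups were far apart, and the lowest WT mouse was replicate 2 and the highest replicate 5. The means were 329.6 ± 242 CPM (SD, n = 5) and 5.12 ± 1.02 CPM (SD, n = 4), a log2 fold change of -6.01 (SE 0.56, edgeR adjusted p = 0.000121).

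*Serpinb3c* had the largest fitted fold change of the family with all 9 mice. WT replicates 1 to 5 gave 22.9, 4.90, 35.0, 15.9 and 47.5 CPM, and the labelled replicates gave 0.0350, 0, 0.127 and 0.304 CPM, or 1, 0, 3 and 6 counts. The labelled group thus held 10 counts in all against 3314 in WT, and the groups did not overlap. The gene reached the count filter in WT libraries only, so its direction was fixed. The log2 fold change was -7.81 (SE 0.90, edgeR adjusted p = 0.000368), and its size rests on those few counts: without labelled replicate 4 it was -8.74, and without labelled replicate 1 it was smaller than that fitted for *Serpinb13*.

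*Serpinb3b* was lower by less. It stood at 11.1, 7.38, 11.7, 12.2 and 34.9 CPM in WT and at 2.24, 1.20, 1.02 and 1.01 CPM in the labelled replicates. WT replicate 5 and labelled replicate 1 lay above the other mice of their groups, with no overlap. On the log2 scale the difference was -3.46 (SE 0.50, edgeR adjusted p = 0.00104).

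*Serpinb3d*, the remaining copy, was almost absent, with 2, 0, 3, 2 and 16 counts in WT and 0 in all 4 labelled libraries. It was not tested, and against a floor of 3 counts over the labelled group it was at least 5.74-fold lower there, which covers counting error only. WT replicate 5 held 16 of the 23 WT counts, and without it the bound was 2.19-fold. Reference transcripts of the 4 copies are 86.5% to 94.0% identical over their aligned length, and 0.9% to 8.2% of the 75-base windows of each, the length of the reads, also occur in another gene. Genes outside the 4 copies that share such windows include *Gm8080* (with *Serpinb3a*, *Serpinb3b* and *Serpinb3d*) and *Gm8084* (with *Serpinb3c*). Summing the 4 copies removes exchange of reads among them but not with such genes. Summed in this way, the level was 274, 123, 354, 265 and 832 CPM in WT and 6.36, 7.67, 6.66 and 5.93 CPM in the labelled replicates. The sum differed by a log2 fold change of -5.79 (SE 0.54, edgeR adjusted p = 0.00014), and a two-sided exact permutation test over all splits of the mice gave p = 0.00794, the smallest it can give.

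*Serpinb12*, an inhibitor of trypsin-like proteases, followed the same order of mice at its ends. It had 215, 103, 297, 157 and 549 CPM in WT and 6.13, 4.02, 4.15 and 7.75 CPM in the labelled replicates. Even the lowest WT mouse was 13.3-fold above the highest labelled one. This gave a log2 fold change of -5.58 (SE 0.53, edgeR adjusted p = 0.000133).

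*Serpinb13*, known as headpin, an inhibitor of cathepsins L and K made by keratinocytes, was scarce. It had 19, 9, 52, 18 and 75 counts in WT and 1, 0, 0 and 0 counts in the labelled libraries. Every WT library therefore held more counts than the labelled group together. Relative to the library sizes, WT was 129.6-fold higher over the pooled counts (exact 95% counting interval 23.0 to 5150). That interval covers counting error only, not the spread between mice. The fitted log2 fold change was -6.41 (SE 1.08) and passed the test (edgeR adjusted p = 0.00209), although without WT replicate 1, 3, 4 or 5 the gene fell below the count filter. It reached that filter in WT libraries only, so its direction was fixed.

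**Figure D2:**
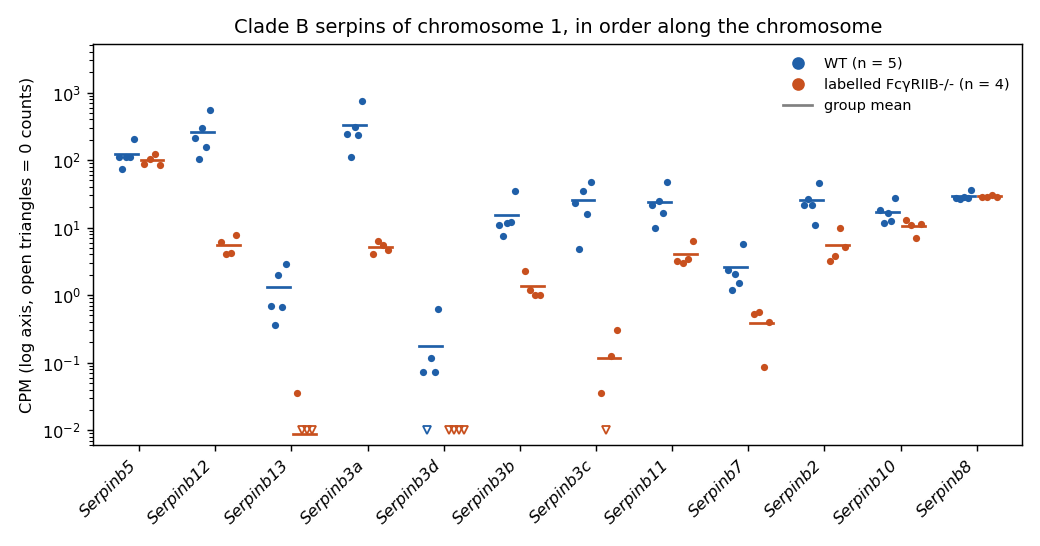
CPM of the 12 clade B serpins of chromosome 1 in each mouse, on a log axis, in the order of the genes along the chromosome; points are mice, bars are group means and open triangles are libraries with 0 counts. From *Serpinb12* to *Serpinb2* the groups do not overlap, except for *Serpinb3d*, whose WT replicate 2 also had 0 counts, whereas the groups overlap for *Serpinb5*, *Serpinb10* and *Serpinb8*.

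The other lower members of this cluster were *Serpinb11*, *Serpinb7* and *Serpinb2*. *Serpinb11* averaged 24.0 ± 14.2 CPM among WT mice (SD, n = 5) against 4.01 ± 1.63 CPM among labelled mice (SD, n = 4), a log2 fold change of -2.59. *Serpinb7*, also called megsin, differed by -2.69 at much lower levels, 1.20 to 5.74 CPM in WT and 0.0847 to 0.555 CPM in the labelled group. *Serpinb2*, plasminogen activator inhibitor 2 of macrophages and keratinocytes, differed by -2.21 (11 to 46.3 CPM against 3.15 to 9.79 CPM), and the part of the lower macrophage markers in this was not tested.

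*Serpinb5*, or maspin, a member that inhibits no protease and is made by basal epithelial cells, did not pass: 111, 73.6, 111, 110.0 and 203 CPM in WT stood against 87.4, 105, 121 and 84.4 CPM (log2 fold change -0.29, SE 0.24). *Serpinb10*, expressed in haematopoietic cells, had a log2 fold change of -0.70 and also missed the threshold (edgeR adjusted p = 0.0575), which it passed in DESeq2 (0.0251) and without WT replicate 2 (0.0361). *Serpinb8* was level, at 29.1 ± 3.67 CPM (SD, n = 5) and 28.9 ± 0.911 CPM (SD, n = 4).

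Most epithelial markers moved with the genes of this cluster. Among them, *Krt4* and *Krt13* of differentiating mucosa had log2 fold changes of -5.67 and -5.32, *Krt1* and *Krt10* of cornifying epithelium had -6.44 and -4.80, and loricrin (*Lor*) and *Sprr3* had -6.75 and -6.19. The basal markers did not go the same way: *Krt5* was higher (0.39, edgeR adjusted p = 0.0356), and *Krt14* (0.24) and *Trp63* (0.31) did not pass. Within WT, replicate 5 was the highest mouse in 8 of the 8 lower serpins of the cluster, at 2.16 to 4.34 times the median of the other WT mice, and replicate 2 the lowest in 7 of 8. The same mice had the highest and the lowest summed epithelial markers, 24176 and 6547 CPM. The part of the epithelial markers in the differences of the serpins was not tested.

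The second cluster of clade B, on chromosome 13, held 15 members, of which 7 were tested, 1 was lower and 1 higher. *Serpinb6a*, an inhibitor found in the cytoplasm of many cell types, was the family's only higher member. It had 165, 142, 172, 161 and 182 CPM in WT and 210.4, 202, 228 and 182 CPM in the labelled replicates. The lowest labelled mouse, replicate 4, lay within the WT range, so the groups overlapped at their edge. The log2 fold change was 0.32 (SE 0.09, edgeR adjusted p = 0.0197), and without labelled replicate 3 it no longer passed (adjusted p = 0.0513).

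*Serpinb1a*, the inhibitor of neutrophil elastase, proteinase 3 and cathepsin G, was lower (log2 fold change -1.10, SE 0.23, edgeR adjusted p = 0.00508), at 31.8 to 66.8 CPM in WT and 14 to 22.1 CPM in the labelled group. The neutrophil markers given above were lower in the same libraries, and their part in this difference was not tested. *Serpinb9*, the inhibitor of granzyme B, had a log2 fold change of -0.18 and did not pass. Summed over their copies, *Serpinb1* was lower (-0.97, edgeR adjusted p = 0.00783), *Serpinb6* higher (0.33, edgeR adjusted p = 0.0119, groups apart) and *Serpinb9* not called (-0.17).

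Clade A had 12 tested members, of which 4 were lower, and the median log2 fold change was 0.03. The share of lower members was 33.3%, against 19.3% of all tested genes. Of these 4, *Serpina12* and *Serpina3b* reached the count filter in WT libraries only, so their direction was fixed. All 12 lie in the cluster of 25 genes on chromosome 12, where *Serpina9* and *Serpina12* are neighbours.

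*Serpina12*, or vaspin, a secreted serpin of adipose tissue and skin that inhibits kallikrein 7, had 2.25, 1.56, 2.58, 1.76 and 8.82 CPM in WT and 0.315, 0.323, 0.169 and 0.253 CPM in the labelled replicates. In counts this was 62, 39, 67, 48 and 226 against 9, 7, 4 and 5. The groups did not overlap, and WT replicate 5 had more than the other WT mice together. The log2 fold change was -3.65 (SE 0.63, edgeR adjusted p = 0.00231), and without WT replicate 5 it was -2.89 (edgeR adjusted p = 0.000188). A two-sided exact permutation test gave p = 0.00794, the smallest it can give. Since the gene reached the count filter in WT libraries only, its direction was fixed, and these p-values add no support for it.

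Among the serpins *Serpina12* was the sixth from the lowest of 37 by fold change, behind *Serpinb3c*, *Serpinb13*, *Serpinb3a*, *Serpinb12* and *Serpina9* and just ahead of *Serpinb3b*. Its SE of 0.63 spans the fold changes of both *Serpina9* and *Serpinb3b*, so the order of these 3 is not settled by the data. Among all tested genes its fold change lay at percentile 1.05 from the lowest, that of *Serpinb3c* at 0.031 and that of *Serpinb3a* at 0.263.

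*Serpina9*, or centerin, known from germinal-centre B cells, differed to a like degree. It had 10, 6.66, 13.8, 11 and 39.4 CPM in WT and 1.02, 0.739, 0.974 and 2.03 CPM in the labelled replicates. WT replicate 5 was again the highest mouse and replicate 2 the lowest, and the groups did not overlap. In log2 terms the difference was -3.78 (SE 0.58, edgeR adjusted p = 0.00132), and without WT replicate 5 it was -3.12 (edgeR adjusted p = 0.000199). Of 8 markers of B and T cells, 5 were lower in the labelled group. Within WT their sum was highest in replicate 2, at 117 CPM against 26.0 to 45.1 in the other WT mice. The summed epithelial markers, like *Serpina9*, were highest in WT replicate 5 (24176 CPM) and lowest in replicate 2 (6547 CPM). The part of either list in the difference of *Serpina9* was not tested.

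The remaining lower members of clade A belong to the *Serpina3* copies, which have multiplied in rodents. *Serpina3b* was lower at very low levels, 0.220 to 1.17 CPM against 0 to 0.175 CPM (log2 fold change -2.93, edgeR adjusted p = 0.0124), which became -3.73 without labelled replicate 1. Without WT replicate 1, 2, 3 or 5 it fell below the count filter. It reached that filter in WT libraries only, so its direction was fixed. *Serpina3g*, an inhibitor of lysosomal cysteine cathepsins in leukocytes, was lower by a log2 fold change of -1.33 (SE 0.41, edgeR adjusted p = 0.0293), with 14.5 CPM in WT replicate 2 and 3.97 to 5.25 in the other WT mice against 1.86 to 3.90. It did not pass without labelled replicate 1, 2 or 4 (adjusted p between 0.0574 and 0.0795). *Serpina3f*, at 0.386 to 1.77 CPM in WT and 0.315 to 0.932 in the labelled group, had a log2 fold change of -1.09 and did not pass with all mice (edgeR adjusted p = 0.0877), although it passed without WT replicate 3 (0.0278) or labelled replicate 3 (0.0385). Markers of B and T cells, at 117 CPM in WT replicate 2 and 26.0 to 45.1 in the other WT mice, had their highest value in the same WT mouse as *Serpina3g*, and their part was not tested.

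*Serpina3n*, an acute-phase inhibitor, had the highest level per length of clade A. It stood at 10.8, 24.9, 11.6, 12.5 and 17.1 CPM in WT and at 13.8, 40.3, 33.3 and 11.9 CPM in the labelled group. Labelled replicates 2 and 3 were the highest mice, but the others lay within the WT range, and the log2 fold change of 0.69 (SE 0.38) did not pass. The summed *Serpina3* copies had a log2 fold change of 0.26 and the summed *Serpina1* copies, the mouse counterparts of alpha-1-antitrypsin, one of 0.61, and neither passed. *Serpina6*, the carrier of corticosteroids, had 0.424 to 0.661 CPM in WT and 0.666 to 0.963 in the labelled group (edgeR adjusted p = 0.0577).

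**Figure D3:**
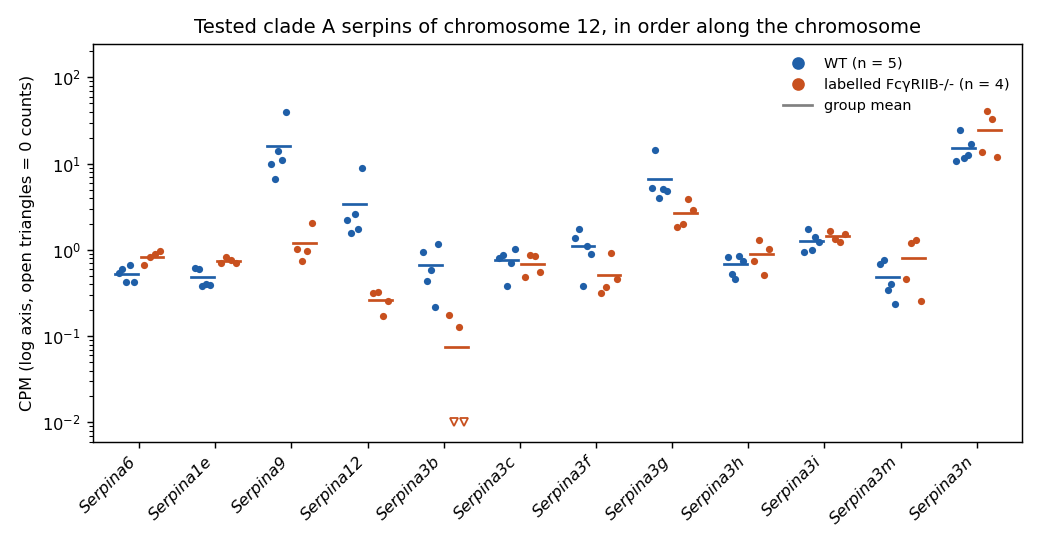
CPM of the 12 tested clade A serpins of chromosome 12 in each mouse, on a log axis, in the order of the genes; points are mice, bars are group means and open triangles are libraries with 0 counts. *Serpina9*, *Serpina12*, *Serpina3b* and *Serpina3g* are lower with no overlap, *Serpina6* and *Serpina1e* lie higher with no overlap, and the other 6 overlap.

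Of the 27 untested members 14 belong to clade A and 9 to clade B, and many of the former are made by the liver. *Serpinc1*, antithrombin and the only clade C member, had 2, 3, 6, 4 and 3 counts in WT and 3, 2, 6 and 6 in the labelled libraries. *Serpinf2*, the inhibitor of plasmin, had 10, 8, 6, 8 and 9 counts and 11, 5, 9 and 2 counts. Neither was tested. The other untested genes reached at most 16 counts in any library, and those with no count anywhere were *Serpina16*, *Serpina1f*, *Serpina1a*, *Serpina4-ps1*, *Serpina3a*, *Serpina3j*, *Serpinb9f*, *Serpinb9g*, *Serpinb6d* and *Serpini2*. A count of 0 in a library allows up to 3 counts there by counting error.

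Clades D to I held the serpins of connective tissue, vessels and nerves, and their differences were small. *Serping1*, the C1 inhibitor of complement, was lower: 284, 532, 314, 313 and 361 CPM in WT and 252, 209, 241 and 222 CPM in the labelled replicates. The groups did not overlap, with WT replicate 2 far above the rest. Its log2 fold change was -0.64 (SE 0.17, edgeR adjusted p = 0.0159).

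*Serpine2*, protease nexin 1, which inhibits thrombin and plasminogen activators, was lower as well, from 230.1, 280.0, 239, 266 and 289 CPM in WT to 217, 209, 229 and 177 CPM. The groups were almost in contact, the lowest WT mouse being 1.005-fold above the highest labelled one. The log2 fold change was -0.33 (SE 0.10, edgeR adjusted p = 0.0290), and 5 of the 9 fits that leave out 1 mouse each put its adjusted p between 0.0600 and 0.0783.

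*Serpinh1*, the collagen chaperone Hsp47 of the endoplasmic reticulum, was the most abundant serpin per length. It had 1135, 1393, 1279, 1339 and 1227 CPM in WT and 1452, 1867, 1720.3 and 1314 CPM in the labelled replicates. Labelled replicate 4 lay within the WT range and the other 3 above it, and the log2 fold change of 0.32 (SE 0.12) missed the threshold (edgeR adjusted p = 0.0632) with all 4 labelled mice and passed without replicate 4 (adjusted p = 0.0301).

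*Serpinf1*, pigment epithelium-derived factor of osteoblasts and fibroblasts, was close to level: 653, 790.4, 718, 671 and 709 CPM in WT and 695, 737, 660.4 and 795 CPM (log2 fold change 0.03, SE 0.09). *Serpini1*, neuroserpin, had 3.22, 4.45, 4.01, 3.96 and 3.75 CPM and 3.92, 4.85, 5.51 and 3.65 CPM (log2 fold change 0.21). *Serpind1*, heparin cofactor II, had 0.761, 3.37, 2.04, 1.51 and 1.87 CPM and 1.72, 1.52, 1.53 and 1.52 CPM (log2 fold change -0.27). The groups overlapped for all 3, and none passed.

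Per kilobase of exons, the order of the serpins was not the same in both groups. In WT the highest mean levels were those of *Serpinh1* (522 ± 40.8 CPM per kb, SD, n = 5), *Serpinf1* (300.3 ± 22.5), *Serpinb3a* (202 ± 148), *Serping1* (155 ± 42.8) and *Serpinb12* (106 ± 70.0). The SD of *Serpinb3a* spans the neighbours on both sides, so its place among them is loose. In the labelled group *Serpinb3a* (3.14 CPM per kb) was 13th and *Serpinb12* (2.21 CPM per kb) 16th of the 37, and *Serpinb3c* went from 11th to 35th. *Serpina12* was 24th in WT (0.920 CPM per kb) and 34th in the labelled group (0.0719 CPM per kb), so that it was a minor serpin of the mandible in either.

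**Figure D4:**
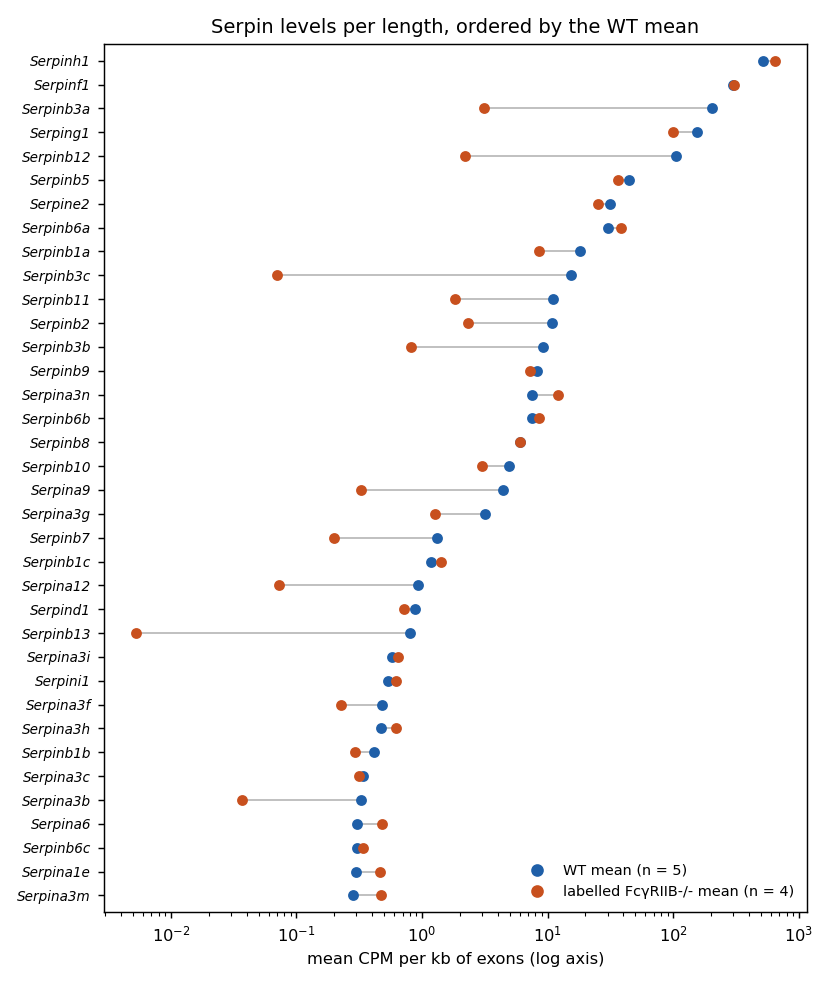
Mean CPM per kb of exons of 36 of the 37 tested serpins in WT and in the labelled group, on a log axis, ordered by the WT mean. The longest lines are those of *Serpinb3c* and *Serpinb13*, and *Serpinh1* and *Serpinf1* lead in both groups.

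The proteases that serpins act on were looked at as lists by type. All 4 neutrophil serine proteases, which include the targets of *Serpinb1a* named above, were lower, with a median log2 fold change of -3.35. Neutrophil elastase (*Elane*) averaged 35.6 ± 14.6 CPM among WT mice (SD, n = 5) against 2.76 ± 3.17 CPM among labelled mice (SD, n = 4), a log2 fold change of -3.62 against -1.10 for its inhibitor. *Ctsg* (-3.12) and *Prss57* (-3.58) were lower too, as were all 4 tested mast cell proteases (median -1.48), led by *Cpa3* at -2.17.

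Of the kallikrein-related peptidases, secreted proteases of epithelium, 9 of 10 tested were lower (median -2.07), and for *Klk10*, *Klk11* and *Klk12* among them the groups overlapped. Their summed level was 468 CPM in WT replicate 5, 192 to 234 CPM in the other WT mice and 134 to 169 CPM in the labelled group. This sum includes *Klk4*, the tested member that was not lower, with means of 66.1 CPM in WT and 99.4 CPM in the labelled group. Much of the sum in the labelled group is thus *Klk4*. Most of the epithelial markers described above were lower in the same libraries, and their part was not tested. *Klk7*, the target of *Serpina12*, averaged 14.5 ± 8.04 CPM among WT mice (SD, n = 5) against 1.04 ± 0.273 CPM among labelled mice (SD, n = 4). Its log2 fold change of -3.81 (SE 0.41, edgeR adjusted p = 0.000266) stands beside -3.65 for its inhibitor. *Klk9* (-4.05) and *Klk14* (-3.39) were lower by like amounts. The exception, *Klk4*, a protease of enamel maturation, named here after its values were seen, had 0.59 and did not pass.

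The remaining lists had smaller shares of lower genes, to be read against the 19.3% of all tested genes that were lower and the few members of each list. In the complement list 3 of 7 were lower, and these included *C1s1* (-0.68) and *C1ra* (-0.53), proteases that *Serping1* inhibits, and *Masp1* (-1.08). In plasminogen activation 2 of 6 were lower, *Lrp1* (-0.62), the receptor that clears complexes of serpins with their proteases, and *Plaur* (-0.70), while *Plau* had -0.22 and did not pass. Among the cysteine cathepsins 3 of 9 were lower, *Ctsk* (-1.03), *Ctsw* (-1.19) and *Ctsb* (-0.28), beside the lower macrophage and osteoclast markers, a list that holds *Ctsk*. In coagulation 3 of 7 were lower, *F5* (-1.96), *F10* (-2.36) and *F3* (-1.07), beside the lower platelet markers. The part of these markers was not tested. The tested granzymes, granzyme B (*Gzmb*) among them, had edgeR adjusted p between 0.0730 and 0.823. Of the 16 procollagen chains and folding enzymes that work with *Serpinh1*, 3 were higher and 5 lower, with *P4ha2* at 0.57, *Plod2* at 0.59 and *Col5a1* at -0.73.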

How the data were processed

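Each library is the poly(A) RNA of 1 mouse, taken from the ground mandible with its teeth and prepared with a directional kit. The authors used Trim Galore for trimming, HISAT 02.1.0 for alignment to mm10 and featureCounts for counting, and deposited raw counts. The gene annotation, strand setting and handling of reads that match several genes are not given in the sources used here. Groups and replicate numbers were taken from the labels, and 1 column of per-sample values that matches no sample was not used. Totals of 21453880 to 28991631 counts per mouse make values under about 1 CPM rest on few reads. Genes without a symbol (1030) held 0.097% of the counts.

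Counts were compared with edgeR 4.0.16 in R 4.3.3 (filterByExpr with a minimum count of 10, TMM, quasi-likelihood test between the groups without covariates, Benjamini-Hochberg adjustment over 16329 genes at 0.05). The SE of a log2 fold change is its size divided by the root of its F statistic. CPM uses the TMM-scaled library size, and log2 CPM a prior count of 2. Copies of a gene were also summed and the fit repeated. Coordinates and promoters come from RefSeq for GRCm38.p6, and exon lengths and 75-base windows from GENCODE M21 (64 of 64 members matched in both). The code was tested on simulated counts. Values in every mouse are given for *Serpina12*, the *Serpinb3* copies, the 5 members with the largest fold change each way among those called, and the 2 members of each clade highest per kb. One member that this rule covers is counted but not reported here. For the protease lists, up to 3 genes by adjusted p are named. *Klk4*, *Klk10*, *Klk11*, *Klk12* and *Gzmb* are named outside this rule. The members and gene lists were chosen with earlier results of these data known. Separate animals are the replicates. Alternatives were DESeq2 1.42.0 and its size factors, other filters, a fold limit, a replicate block and leaving out each mouse.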

Additional observations from a re-analysis of the deposited data

Results flagged for a closer look

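In 11 of the 74 groups examined (37 serpins in each genotype), 1 mouse stood apart from the others, with a gap to its nearest neighbour that exceeded Dixon's 95% critical value as a share of the group's range. The critical value flags about 5% of groups when values are independent and normally distributed. CPM need not be so distributed, and the same mice recur across the groups, so the count of flags cannot be set against that share.

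WT replicate 5 was the high mouse for *Serpina12* (8.82 CPM, gap 0.86 of the range), *Serpina9* (39.4 CPM, 0.78), *Serpinb3b* (34.9 CPM, 0.826), *Serpinb7* (5.74 CPM, 0.746), *Serpinb1a* (66.8 CPM, 0.774) and *Serpinb8* (35.5 CPM, 0.763). It is also the WT mouse with the most epithelial and neutrophil markers (24176 and 3519 CPM), whose part was not tested. WT replicate 2 was the high mouse for *Serpina3g* (14.5 CPM, 0.879).

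In the labelled group, replicate 1 was high for *Serpinb3b* (2.24 CPM, 0.847), *Serpind1* (1.72 CPM, 0.975) and *Serpinb13*, where its 1 count was the only one of the group (gap 1 of the range). Replicate 4, the library with the *Muc5b* counts, was high for *Serpinb11* (6.44 CPM, 0.852).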

How the results depend on the processing

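With a fold limit of 1 on the log2 scale, 181 of all genes were higher and 1069 lower, against 2289 and 3144 without it. Under this limit 0 serpins, 0 serpin target proteases and partners and 0 summed copies were higher (from 1, 3 and 1), and 1 sum was lower (from 2). DESeq2's Wald test called 2 serpins higher, adding *Serpinh1* (adjusted p = 0.0129), and 6 proteases and partners higher; DESeq2 size factors alone gave 5 of the latter. With plain library totals 1 serpin, not 2, was higher without overlap.

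The replicate numbers did not pair the mice: the correlations of same-numbered deviations lay between -0.114 and 0.097, and no mouse correlated best with its own number. With the replicate block 12 serpins were lower, 1 was higher, and *Serpine2*, *Serpina3g* and *Serping1* no longer passed (adjusted p = 0.0942, 0.0668 and 0.0528). The block left 1594 of all genes higher and 2410 lower. No labelled mouse has the number 5, so WT replicate 5 adds nothing to the group difference in this fit. The effect of the block and that of losing this mouse cannot be told apart here.

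Leaving out 1 mouse at a time gave 12 to 16 lower and 0 to 2 higher serpins. *Serpine2* and *Serpina3g* lost the call in several of these fits, and *Serpinb13* and *Serpina3b* were not tested in several, since too few libraries were left above the count filter. *Serpinb6a* was lost without labelled replicate 3 (adjusted p = 0.0513), *Serpina1e* gained without WT replicate 1 (0.0490) and *Serpinh1* without labelled replicate 4 (0.0301). Values close to 0 changed sign: *Serpinb8* to 0.0062 with DESeq2 size factors, 0.0063 in DESeq2, 0.0741 with the block, 0.0965 without WT replicate 5 and 0.0069 without labelled replicate 1; *Serpina3c* to 0.0061 with the block, 0.0206 without WT replicate 5 and 0.0179 without labelled replicate 1; *Serpinf1* to -0.0215 without labelled replicate 4; *Serpind1* to 0.0471 without WT replicate 2; and the summed *Serpina3* copies to -0.0146 without labelled replicate 2. Over the fits without 1 mouse the largest values the other way were -0.0285, -0.279, 0.0858, -0.46 and 0.523 for these 5 in turn. The cause was not tested.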
